A study of Mus musculus with 17 samples.

Results

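The fracture response described here is that of cells sorted as skeletal stem cells (SSC), measured on the 9 arrays whose titles name SSC out of the 17 arrays of the series. Of these, 6 arrays hold SSC from fracture callus and 3 hold SSC from uninjured bone. All mice were C57BL/6 females. In the study's protocol they were operated on at 8 weeks of age, by sham surgery or by ovariectomy (OVX). OVX removes the ovaries and with them most circulating estrogen. In that protocol the femur was fractured at 14 weeks around a pin and the callus was taken on day 7. The callus arrays are SS and SIS from sham mice, OS from OVX mice, ES from OVX mice given estradiol (OVX + E2), OIS, and SI. OIS is labelled OVX in its title and source name and sham in its treatment tag, and the surgery behind SI is not stated. The uninjured arrays are OUS from OVX mice, and SUS and SU from sham mice. All ovary states were pooled within the callus and the uninjured group, so injury is the contrast. The title codes take 3 forms. SS, OS and ES, called the 2-letter arrays here, are callus only, OIS, SIS, OUS and SUS have 3-letter codes, and SI and SU end in I and U. No source used here says what the forms mark, so each difference was also taken within the 3-letter codes (2 against 2 arrays) and within SI and SU (1 against 1). The labels do not say whether arrays came from separate mice or how many mice gave 1 array, so p-values measure only the spread between these arrays.

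SSC are the cells at the head of the skeletal lineage, which give rise to bone, cartilage and marrow stroma. After a fracture such cells leave rest, divide, and lay down a soft callus of cartilage and fibrous matrix, which is later replaced by bone. The matrix of a callus is built by collagens and by the enzymes that fold, trim and cross-link them, while BMP, Wnt, hedgehog, TGF-beta and IGF signals set which skeletal fate a cell takes. In this study the cells were sorted as AlphaV integrin+ and CD200+ and as negative for CD45 (leukocytes), Ter119 (erythroid cells), Tie2 (endothelium), Thy1, 6C3 and CD105.

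The arrays from uninjured bone went against this sort. Ptprc, the gene of CD45, had a normalised log2 signal of 7.76 to 13.55 (median 10.21) on the callus arrays, against 14.61, 14.27 and 14.56 on OUS, SUS and SU. Every callus array lay below every uninjured array, with a log2 difference of -4.30 ± 1.01 (callus minus uninjured ± SE, limma, Benjamini-Hochberg adjusted p = 0.00657), and OIS stood at 13.55. None of the other negative markers was called. Tek, the gene of Tie2, differed by -0.70 ± 0.34 (adjusted p = 0.127), Eng, the gene of CD105, by -0.47 ± 0.24 (adjusted p = 0.138), Thy1 by 0.28 ± 0.33 (adjusted p = 0.523), and Enpep, the gene of 6C3, by 0.32 ± 0.65 (adjusted p = 0.727). Of the positive markers, Itgav, the AlphaV integrin, was higher in callus by 0.90 ± 0.19 (adjusted p = 0.00363) and overlapped on no array. Cd200 was higher by 2.34 ± 0.70 (adjusted p = 0.0218), but its level on OUS, 12.22, reached into the callus range, and on SU it was 8.15. Of 7 sort genes tested 2 were called higher (1 without SU or SUS) and 1 lower, where 22.3% and 17.8% of all genes were called in those directions. The call of Cd200 was lost without either SU or SUS (1.26 to 2.48, adjusted p = 0.0512 to 0.0712).

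Blood cell genes were also high on the uninjured arrays. S100a8, a calcium-binding protein that neutrophils hold in large amounts, had a log2 signal between 11.12 and 14.36 in callus (median 12.57), against 14.29 on OUS, 14.56 on SUS and 14.29 on SU, a difference of -1.64 ± 0.70 (adjusted p = 0.0862), and was bright on every array. Itgam, an integrin subunit of myeloid cells, was at 7.09 to 11 (median 8.34) on the callus arrays, against 11.63, 12.46 and 11.76 on OUS, SUS and SU, and differed by -3.38 ± 0.70 (adjusted p = 0.00327). Ighm, the heavy chain of IgM in B cells, lay between 8.77 and 12.54 in callus (median 10.13), against 13.30 on OUS, 14.51 on SUS and 12.71 on SU, a difference of -3.36 ± 0.71 (adjusted p = 0.0039). OIS was the highest callus array for both Itgam and Ighm, and the groups did not overlap. The partner of S100a8, S100a9, differed by -1.95 ± 0.74 (adjusted p = 0.0576), and the granule proteins Ltf and Camp by -2.04 and -1.04, none of which was called. Csf3r, the receptor of G-CSF, Cxcr2, the neutrophil chemokine receptor, Mmp8, the neutrophil collagenase, and Elane, neutrophil elastase, fell by 3.40, 3.04, 4.13 and 2.36. Cybb, the oxidase subunit of phagocytes, fell by 3.56 and Lyz2, a lysozyme of myeloid cells, by 1.38, while Csf1r, the receptor of M-CSF on macrophages, differed by -1.45 ± 0.65 (adjusted p = 0.101). Of lymphoid markers, Cd79a, of the B cell receptor, Jchain, of secreted antibodies, and Nkg7, of killer cells, fell by 1.08, 4.19 and 3.70, Kit, of mast cells and blood progenitors, fell by 3.15, and Ms4a1, the gene of CD20, differed by -3.11 ± 0.80 (adjusted p = 0.01). Cd3e of T cells and Hba-a1 of red cells were too dim to be tested, and no probe set was matched to Hbb-b1. Over the lists of marker genes used here, 8 of 14 neutrophil genes, 7 of 18 macrophage and monocyte genes, 7 of 13 B cell and plasma cell genes and 4 of 8 T, NK and mast cell genes were called lower in callus, against 17.8% of all genes tested. Without OIS the neutrophil count was 12. It was 5 without any 1 of SS, OS and SIS, 4 without OUS and 3 without SUS. The count of T, NK and mast cell genes was 6 without SU and 3 without OUS or SUS. That of B cell and plasma cell genes was 10 without OIS and 5 without OUS or SUS. The summed linear signal of the neutrophil list lay between 22375 and 197726 on callus arrays, against 205104 to 285437 on uninjured arrays. That of the macrophage list lay between 11831 and 63102, against 80575 to 105964, and that of the B cell list between 16954 and 34477, against 38716 to 67046. Ebf1, which is also a factor of marrow stroma, was the only member of the B cell list called higher in callus (2.65 ± 0.63, adjusted p = 0.00675), and C1qb, a complement subunit of macrophages, the only one of the macrophage list (1.93 ± 0.68, adjusted p = 0.0428). S100a8 was called without either OIS or SI (-1.96 to -1.95, adjusted p = 0.0329 to 0.0359). S100a9 was called without either OIS or SI (-2.31 to -2.28, adjusted p = 0.0218 to 0.0238). Ltf was called without either OIS or SI (-2.40 to -2.33, adjusted p = 0.0193 to 0.0274). The call of Elane was lost without SUS (-1.94, adjusted p = 0.0758). The call of Lyz2 was lost without any 1 of ES, OS, OUS, SIS, SS, SU and SUS (-1.50 to -1.12, adjusted p = 0.0566 to 0.145). The call of Cd79a was lost without either OUS or SUS (-0.98 to -0.77, adjusted p = 0.0755 to 0.0958). The call of Ms4a1 was lost without either OUS or SUS (-2.73 to -2.50, adjusted p = 0.0512 to 0.057). The call of C1qb was lost without any 1 of ES, OS, OUS, SI, SS, SU and SUS (1.65 to 2.14, adjusted p = 0.0576 to 0.124). Without SU, Ebf1 differed by 1.68.

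Erythroid genes split the uninjured arrays. Slc4a1, the anion exchanger of red cells, had a log2 signal of 13.49 on OIS and of at most 11.11 on the other callus arrays, against 14.26 on OUS, 14.38 on SUS and 7.44 on SU. It was not called (-2.48 ± 1.66, adjusted p = 0.257), and of 8 erythroid genes 1 was called, Tfrc, the transferrin receptor of all dividing cells (-1.68 ± 0.57, adjusted p = 0.0364). Without SU all 8 were called lower in callus, without OIS 4, and without any 1 of SS, OS, ES, OUS and SUS 0. Rhag, a membrane protein of red cells, differed by -3.19 ± 1.58 (adjusted p = 0.13). Ppbp, a platelet chemokine, likewise stood at 10.25 on OUS and 13.63 on SUS but at 5.92 on SU, and of 7 platelet genes 2 were called lower (4 without SU, 1 without OUS or SUS, 0 without OS or ES). Pf4, platelet factor 4, differed by -1.42 ± 1.08 (adjusted p = 0.316). Genes of endothelium (Pecam1 -0.48 ± 0.32, adjusted p = 0.262, Cdh5 -0.15 ± 0.38, adjusted p = 0.778) and of skeletal muscle (Myod1 -0.13 ± 0.29, adjusted p = 0.749) were not called. Sox10, the factor of Schwann cells, differed by -0.37 ± 0.25 (adjusted p = 0.262). Of 12 endothelial genes 1 was called lower (3 without SS, 2 without SU, 0 without SUS), of 9 muscle genes 1 (3 without SU, 2 without SI, 0 without OUS or SUS), and of 8 Schwann cell genes 1, with 2 higher (1 without SU or SUS). Over all genes tested 17.8% were called lower and 22.3% higher. The shares called lower were 12.5% for erythroid, 28.6% for platelet, 8.33% for endothelial, 11.1% for muscle and 12.5% for Schwann cell genes. Of Schwann cell genes 25% were called higher. The uninjured arrays are called here by their label, uninjured SSC, although CD45 transcript and myeloid genes were high on all 3 of them. Callus arrays held such transcripts too, and the mean log2 level of the neutrophil list was 13.18 on OIS against 13.08 on SU. In a bulk sample fewer cells of a type and less RNA per cell cannot be told apart, and the part of blood cells in the differences below was not tested. Notes below that a gene is also one of blood cells are background. They stand mainly on genes that fell, few genes that rose carry them, and the cause of these falls was not tested. Slc4a1 was called without SU (-4.77, adjusted p = 0.0216). The call of Tfrc was lost without any 1 of ES, OS, OUS, SS and SUS (-1.56 to -1.29, adjusted p = 0.0653 to 0.157). Rhag was called without either OIS or SU (-5.40 to -4.03, adjusted p = 0.0101 to 0.0343). Pf4 was called without SU (-3.03, adjusted p = 0.0153).

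**Figure D1:**
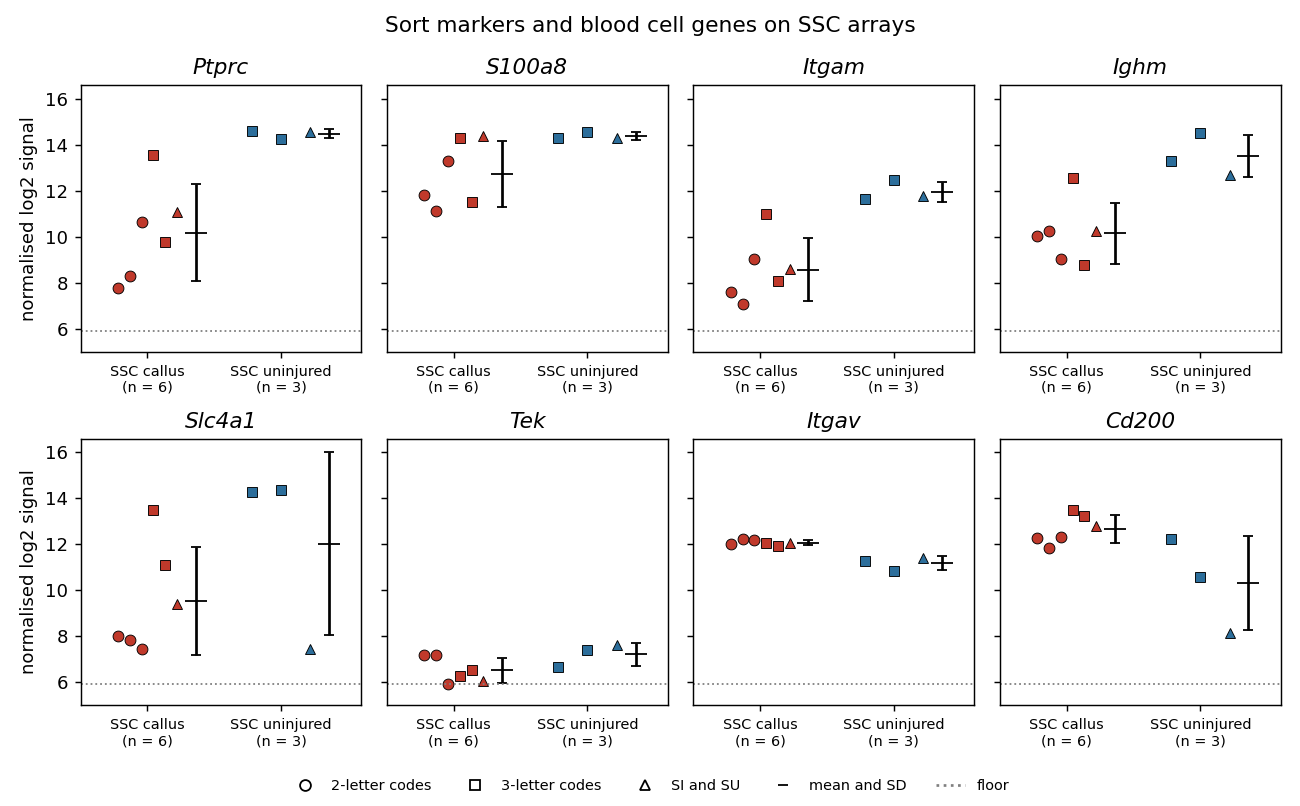
Normalised log2 signal of 4 blood cell genes and 4 sort or lineage markers on each SSC array, callus on the left (red) and uninjured on the right (blue). Points are arrays, shapes give the form of the title code, black bars are the mean and SD, and the dotted line is the floor. Ptprc is at 14.61, 14.27 and 14.56 on the uninjured arrays, above all 6 callus arrays, while Slc4a1 is low on SU.

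In rank correlation over all genes tested the 2-letter callus arrays were alike (Spearman 0.956 to 0.965). OIS stood apart among callus arrays, with 0.731 to 0.870 against the uninjured arrays where the other callus arrays had 0.571 to 0.723. The 3 uninjured arrays correlated at 0.856 to 0.951 with each other. Array medians as deposited ran from 7.66 to 7.87. Both OIS and SU were kept in the main comparison, and counts without each are given below.

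Of 13974 genes tested, 3123 were called higher in callus (22.3%) and 2494 lower (17.8%), together 40.2%, at a limma adjusted p under 0.05. The counts of list members given below are to be read against these shares. With the form of the title code as a term, 2951 (21.1%) were higher and 2364 (16.9%) lower, of which 2672 and 2113 were also called without it. Among the 3-letter codes alone, with 2 arrays against 2, 1348 (9.65%) were higher and 308 (2.2%) lower. Of the 5617 called genes, 5547 had the sign of the fit in both code forms that hold both conditions, although these arrays also entered the fit. All 6 callus arrays lay above all 3 uninjured arrays for 2801 genes (20%) and below them for 2300 (16.5%). Without OIS the counts were 3349 and 2587, and without SU 2660 and 2141.

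The 20 called genes of largest rise had genes of matrix and proteases among them. Adam12, a metalloprotease of regenerating mesenchyme, had a log2 signal of 12.16 to 13.56 (median 13.06) on the callus arrays, against 6.56, 6.38 and 6.92 on OUS, SUS and SU, a difference of 6.34 ± 0.32 (adjusted p = 2.76e-06). Srpx, a secreted sushi-repeat protein, lay between 11.96 and 12.91 in callus (median 12.33), against 6.94 on OUS, 6.4 on SUS and 5.92 on SU. Gpx7, an oxidoreductase of the endoplasmic reticulum, was at 11.37 to 13.08 (median 12.95) on the callus arrays, against 7.54, 7.31 and 6.77 on OUS, SUS and SU. In none of these genes did the groups come near each other. Ptx3, a long pentraxin of matrix and innate immunity, was at the floor of 5.92 on all uninjured arrays, so its difference is at least 5.72. Likewise Epha3, an ephrin receptor, rose by at least 5.37, and Fbn2, a fibrillin of microfibrils, by at least 5.05. Only called genes with the same sign in both code forms could enter these 20, so their sign within a form is no check. The 20 called genes of largest rise differed by 2.81 to 6.03 within the 3-letter codes and by 2.70 to 6.96 between SI and SU. For 14 of these 20 genes OIS was the lowest callus array. Moxd1, a monooxygenase homologue, Pak3, a kinase of the cytoskeleton, Itgbl1, an integrin-like secreted protein, and Grb14, an adaptor that restrains insulin signalling, rose by 5.18, 5.17, 5.08 and 4.90. Tnmd, tenomodulin of tendon and ligament cells, rose by 4.99, with callus levels of 13.64, 13.67 and 13.62 on SS, OS and ES and 10.001 to 10.91 on the others.

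Many of the largest falls were in genes of myeloid and lymphoid cells. Rgs18, a regulator of G-protein signalling in platelets and myeloid cells, had a log2 signal between 5.92 and 10.85 in callus (median 7.73), against 12.60 on OUS, 12.84 on SUS and 13.91 on SU, a difference of -5.32 ± 0.88 (adjusted p = 0.00107). Gca, grancalcin of granulocytes, fell by 5.10, Slfn4, a Schlafen protein of myeloid cells, by 4.73, and Olfm4, a glycoprotein of neutrophil granules, by 4.68. Clec7a, the receptor dectin-1, Csf2rb, the shared receptor chain of GM-CSF, IL-3 and IL-5, and Cd300lb, a myeloid receptor, fell by 4.53, 4.44 and 4.43. Hhex, a homeobox factor of blood progenitors and other lineages, fell by 4.52, and Ripor2 and Arhgap15 by 4.62 and 4.65. Cmah, the enzyme that makes a form of sialic acid, fell by 4.52, Slfn1, a Schlafen protein of lymphocytes, by 4.50, and Slco4c1, an organic anion transporter, by 4.75. The rest of these 20 were Ipcef1, 4833407H14Rik, Mirt1, Mctp1, Tmem45a2, Ceacam10 and Tmem71, which fell by 4.81, 4.78, 4.69, 4.66, 4.51, 4.44 and 4.44. Among the 20 called genes of largest fall the groups never overlapped, and OIS was the highest callus array for 19 of them. These 20 differed by -4.05 to -2.62 within the 3-letter codes and by -6.94 to -2.57 between SI and SU. They too were taken only from called genes with the same sign in both code forms. In limma on the 3-letter codes alone, their adjusted p ran from 0.0485 (4833407H14Rik) to 0.103 (Slfn4). For the 20 called genes of largest rise it ran from 0.00734 to 0.0772 (Mmp13).

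**Figure D2:**
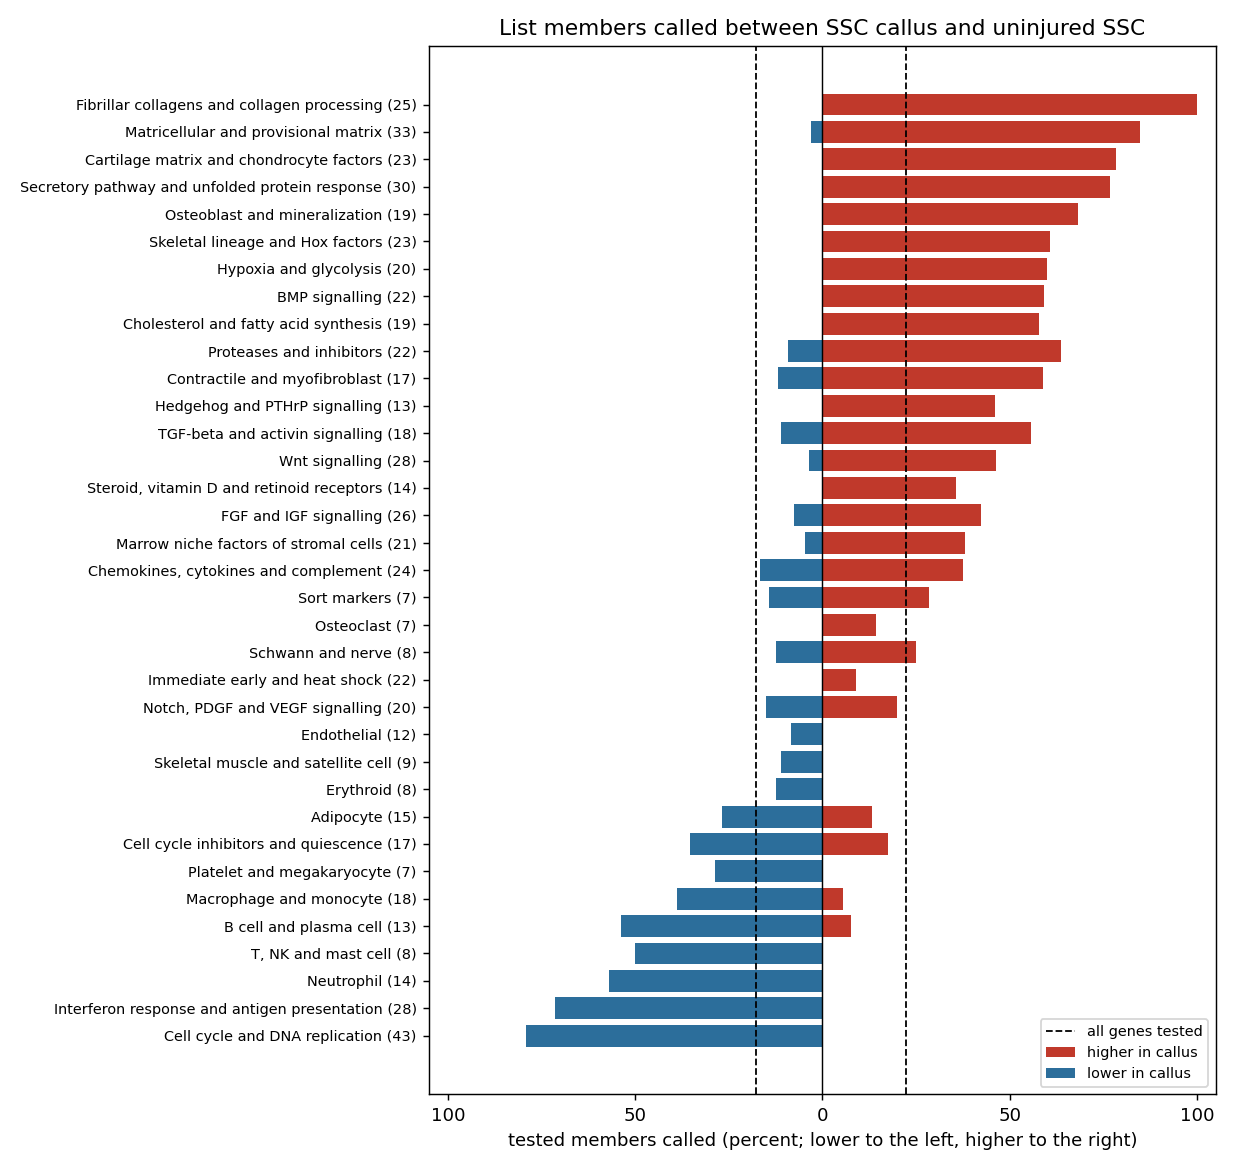
Share of tested members of each gene list called higher (red, right) or lower (blue, left) in SSC callus than in uninjured SSC, with the number tested in parentheses. Dashed lines give the shares over all 13974 genes, 22.3% higher and 17.8% lower. All 25 tested genes of the list named fibrillar collagens and collagen processing lie to the right and 34 of 43 cell cycle genes to the left.

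Genes of the list named fibrillar collagens and collagen processing rose without exception. The list also holds collagens that are not fibrillar, such as Col12a1 and Col14a1. It leaves out Col1a1 and Col1a2, which stand in the osteoblast list, and Col2a1, which stands in the cartilage list. All 25 tested members of the list of fibrillar collagens and collagen processing were called higher, with a median difference of 3.64 where the median over all genes was 0.02, and all 25 were called without OIS and without SU. Col12a1, a collagen that binds the surface of fibrils, had a log2 signal of 13.01 to 13.88 (median 13.70) on the callus arrays, against 9.96, 8.50 and 6.42 on OUS, SUS and SU. Pcolce, which helps the protease that trims procollagen, lay between 11.40 and 13.12 in callus (median 12.83), against 8.45 on OUS, 8.52 on SUS and 7.32 on SU, and P3h1, a prolyl 3-hydroxylase, was at 11.62 to 13.12 (median 12.06) on the callus arrays, against 8.17, 8.37 and 6.82 on OUS, SUS and SU. Plod1, a lysyl hydroxylase, rose by 3.78, P4ha3, a prolyl 4-hydroxylase subunit, by 4.61, Crtap, the partner of P3h1, by 3.41, and Serpinh1, the procollagen chaperone HSP47, by 3.65. The cross-linking enzymes Lox and Loxl1 rose by 3.47 and 4.29, and Col1a2, the partner chain of Col1a1, by 2.37. Col1a1, the main collagen chain of bone, lay between 14.35 and 15.17 in callus (median 15.02), against 13.13 on OUS, 12.69 on SUS and 9.64 on SU, and differed by 3.04 ± 0.61 (adjusted p = 0.00289). Between SI and SU it differed by 5.33 but within the 3-letter codes by 1.48. Likewise Col3a1, a collagen of repair tissue, differed by 3.23 between SI and SU and by 0.80 within the 3-letter codes, and OUS and SUS both lay above SU. Col14a1, another fibril-binding collagen, was highest on the 2-letter arrays (12.24, 12.46 and 12.77) and 8.33 to 9.80 on the others, against 5.92 to 7.0 on the uninjured arrays. Without SU, Col1a2 differed by 1.28, Col1a1 by 1.96, Col3a1 by 1.18.

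Of 33 matricellular and provisional matrix genes, 28 were called higher and 1 lower, with a median of 2.63 (20 higher without SU). Postn, periostin of periosteum and repair tissue, had a log2 signal of 14.28 to 14.80 (median 14.51) on the callus arrays, against 10.99, 6.45 and 8.0 on OUS, SUS and SU, a difference of 6.05 ± 0.72 (adjusted p = 0.000193). OUS stands out among the uninjured arrays here, as it does for C1qtnf3, a secreted C1q-like protein of skeletal tissue, at 11.70 on OUS against 7.40 and 7.59 on the other two. Cthrc1, a secreted protein of activated fibroblasts and osteoblasts, rose by 5.07, and the tenascins Tnn and Tnc by 5.05 and 4.18. Thbs2, a thrombospondin that restrains vessel growth, rose by 4.49, and Aspn, a proteoglycan that binds TGF-beta, by 3.36. Fn1, fibronectin, rose by 1.92, with 1.07 within the 3-letter codes and 3.98 between SI and SU. Dcn, decorin, was not called, at 1.27. The member that fell, Cd44, is the hyaluronan receptor, which leukocytes also carry (-1.34 ± 0.32, adjusted p = 0.00656). The call of Fn1 was lost without any 1 of ES, OIS, OS, SIS and SS (1.85 to 1.97, adjusted p = 0.0505 to 0.0605). Dcn was called without either OUS or SUS (1.67 to 1.82, adjusted p = 0.0256 to 0.0458). Without SU, Fn1 differed by 0.74.

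**Figure D3:**
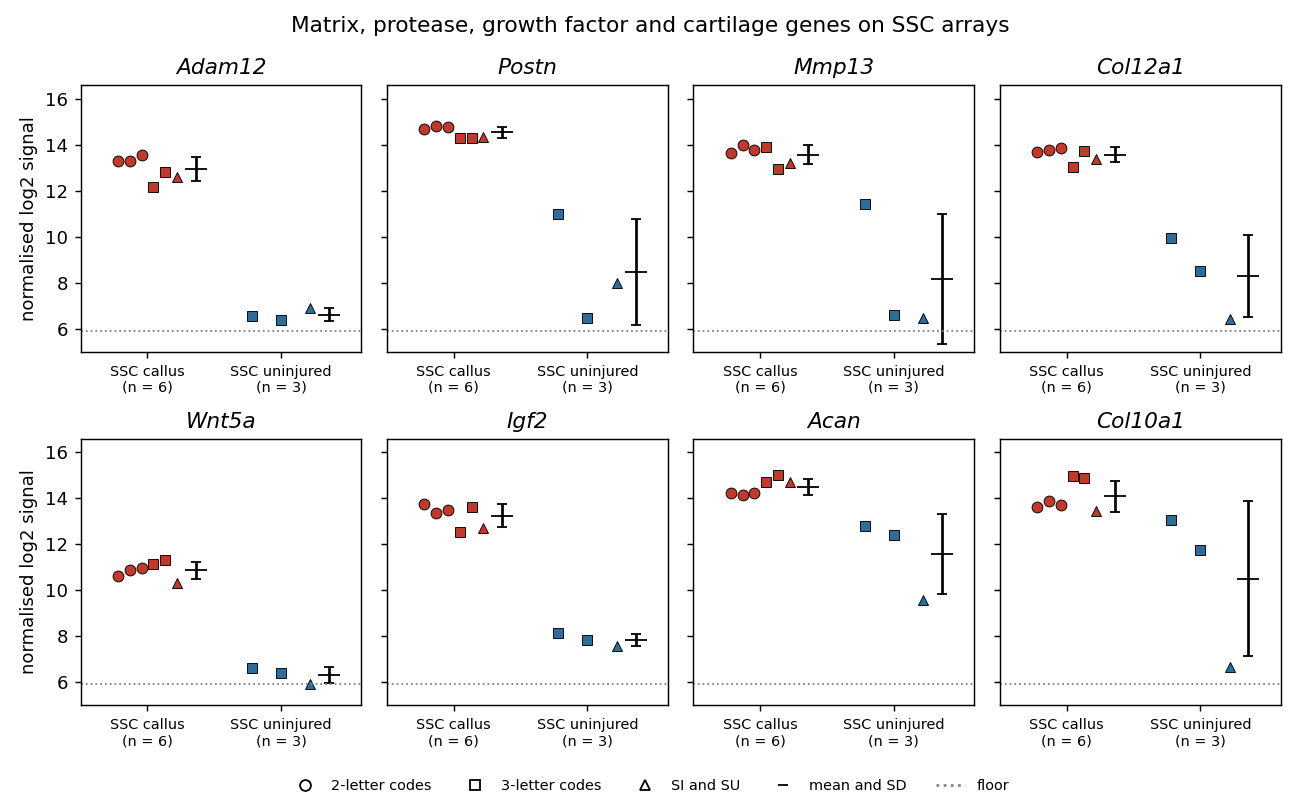
Normalised log2 signal of 8 matrix, protease, growth factor and cartilage genes on each SSC array, callus left (red) and uninjured right (blue), with points, bars and floor as in the plot of sort markers. Callus lies above uninjured in every panel. OUS is the highest uninjured array for Postn (10.99) and Mmp13 (11.42), and SU the lowest for Acan (9.59) and Col10a1 (6.68).

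Of 22 proteases and inhibitors tested, 14 were higher and 2 lower. Mmp2 and Mmp14, a gelatinase and the membrane protease that activates it, rose by 4.81 and 4.67, and Timp1, an inhibitor of such proteases, by 3.96. Adamts12, which cleaves cartilage matrix proteins, rose by 4.32. Mmp13, the collagenase of hypertrophic cartilage and bone, had a log2 signal between 12.94 and 13.98 in callus (median 13.72), against 11.42 on OUS, 6.60 on SUS and 6.46 on SU, a difference of 5.41 ± 0.89 (adjusted p = 0.00107). The members that fell, Mmp9, a gelatinase of neutrophils and osteoclasts (-2.32 ± 0.52, adjusted p = 0.00518), and Adam8, a protease of leukocytes (-3.17 ± 0.63, adjusted p = 0.0026), are genes of blood cells as well. The promoter of Mmp13 is shown because its rise is among the largest and because this window holds the AP-1 word TGACTCA and the RUNX word AACCACA (in capitals), recognition words of the AP-1 and RUNX factors. It lies at chr9:7272264-7272563 on the + strand of GRCm38.p6 (RefSeq), 250 bases before to 50 after the start.
Mmp13: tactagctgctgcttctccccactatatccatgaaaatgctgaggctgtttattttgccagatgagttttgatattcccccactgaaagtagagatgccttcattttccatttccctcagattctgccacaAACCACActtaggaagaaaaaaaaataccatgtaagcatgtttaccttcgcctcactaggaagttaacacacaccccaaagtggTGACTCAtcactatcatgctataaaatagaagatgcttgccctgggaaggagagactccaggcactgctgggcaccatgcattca
Read on both strands, TGACTCA occurs in 5.2% and AACCACA in 5.27% of 32851 promoter windows of this length. Among the 14 proteases and inhibitors that rose, 9 had a promoter in the table, with 10 windows, of which 2 held TGACTCA and 1 AACCACA. A word in this window is a description and no binding was measured.

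Cartilage and bone genes also rose. Of 23 cartilage genes 18 were called higher and 0 lower (16 without SU), with a median of 2.53. Cnmd, chondromodulin, which keeps vessels out of cartilage, had a log2 signal of 14.09 to 14.69 (median 14.51) on the callus arrays, against 11.18, 11.65 and 8.77 on OUS, SUS and SU. Acan, the aggrecan core protein, lay between 14.14 and 15 in callus (median 14.48), against 12.78 on OUS, 12.39 on SUS and 9.59 on SU, and Col9a3, a chain of cartilage collagen IX, was at 14.03 to 15.24 (median 14.41) on the callus arrays, against 11.90, 10.83 and 8.81 on OUS, SUS and SU. All callus arrays were above all uninjured arrays, and SU was lowest each time. Matn1, a matrilin of cartilage, rose by 3.73, Epyc, an epiphyseal proteoglycan, by 4.0, and Sox9, the master factor of chondrocytes, by 2.53. Ucma, a secreted cartilage protein, rose by 3.87, and the cartilage collagen chains Col9a2 and Col11a2 by 3.67 and 3.59. Col10a1, the collagen of hypertrophic chondrocytes, rose by 3.59, to 14.97 and 14.90 on the 3-letter callus arrays and 13.44 to 13.87 on the other callus arrays. Col2a1, the main collagen of cartilage, was called at 2.19 ± 0.75 (adjusted p = 0.0375), yet within the 3-letter codes it differed by 0.21 only, against 5.09 between SI and SU, and with the title form as a term it was not called (adjusted p = 0.0819). Comp, a cartilage glycoprotein, was not called (1.77 ± 0.70, adjusted p = 0.0661). The call of Col2a1 was lost without any 1 of ES, OS, SI, SS and SU (0.86 to 2.16, adjusted p = 0.0544 to 0.0682). Comp was called without either OUS or SUS (2.35 to 2.49, adjusted p = 0.0277 to 0.0408). Without SU, Acan differed by 1.93 and Col10a1 by 1.69.

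Of 19 osteoblast genes 13 were higher and 0 lower, with a median of 1.51 (10 higher and a median of 0.90 without SU). Sp7, the osteoblast factor osterix, had a log2 signal between 9.33 and 10.83 in callus (median 9.95), against 7.14 on OUS, 6.53 on SUS and 5.92 on SU, a difference of 3.42 ± 0.36 (adjusted p = 0.000101), and Pth1r, the receptor of parathyroid hormone and PTHrP, rose by 4.19. Alpl, the phosphatase of mineralising cells, rose by 3.08. Tnfsf11, the osteoclast-inducing ligand RANKL, rose by 3.68, and Dmp1, a phosphoprotein of osteocytes, by 2.92. Ibsp, bone sialoprotein, was called at 1.80 ± 0.61 (adjusted p = 0.0368) and differed by 0.55 within the 3-letter codes. Ctsk, cathepsin K, was the one osteoclast gene of 7 called (1 was lower without any 1 of OIS, OUS and SU), at 3.63, while Acp5, the osteoclast phosphatase, differed by 0.41 ± 0.76 (adjusted p = 0.693). The call of Ibsp was lost without any 1 of ES, OIS, OS, SIS and SS (1.76 to 1.85, adjusted p = 0.0513 to 0.0627). Without SU, Alpl differed by 1.94 and Ibsp by 0.69.

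Both IGF ligands rose. Igf2, the fetal growth factor, had a log2 signal of 12.53 to 13.74 (median 13.43) on the callus arrays, against 8.13, 7.82 and 7.61 on OUS, SUS and SU, a difference of 5.39 ± 0.30 (adjusted p = 5.71e-06), and Igf1, the ligand of adult growth, rose by 4.91, with 13.92 to 14.11 on the 2-letter arrays and 10.67 to 12.96 on the other callus arrays. Igf1r, their receptor, fell by 1.62, and Igfbp3, a binding protein, rose by 2.60. The receptors Fgfr1, Fgfr2 and Fgfr3 rose by 2.80, 3.44 and 2.66, and Fgf7, a ligand of Fgfr2, by 3.26. Of 26 genes of this list 11 were higher (42.3%) and 2 lower (7.69%), against 22.3% and 17.8% of all genes. Without SU, Fgfr1 differed by 1.81.

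Of 28 Wnt genes 13 were higher (46.4%) and 1 lower (3.57%), against 22.3% and 17.8% of all genes. Without SU 2 were lower, and 0 without any 1 of SS, OS, ES, OUS, SI, SIS and SUS. Wnt5a, a ligand that acts without beta-catenin, had a log2 signal between 10.31 and 11.34 in callus (median 10.92), against 6.62 on OUS, 6.39 on SUS and 5.92 on SU, a difference of 4.56 ± 0.28 (adjusted p = 1.11e-05), and its relative Wnt5b rose by 4.19. The secreted Wnt binders Sfrp2 and Sfrp1 rose by 4.99 and 4.20, and the Wnt enhancers Rspo3 and Rspo2 by 2.81 and, from the floor, at least 3.02. The receptor Fzd1 rose by 3.90. Axin2, a target of beta-catenin, was not called (0.67 ± 0.41, adjusted p = 0.219), and Lef1, a beta-catenin partner, fell by 0.71. Lef1 is also a factor of B and T cell precursors. The call of Lef1 was lost without any 1 of ES, OS, OUS, SI, SIS, SS and SUS (-0.74 to -0.56, adjusted p = 0.0519 to 0.144).

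BMP genes rose in 13 of 22 cases and fell in 0 (1 without SUS), with a median of 1.58. Gdf5, the ligand of joint formation, rose by 3.52, and Bmp5 and Bmp6, ligands of the BMP family, by 3.09 and 2.05. Inhibitors rose as well, Chrdl1, a chordin-like antagonist, by 3.63, Bambi, a pseudoreceptor, by 2.32, and Fstl1, a follistatin-like protein, by 4.13. Id3, a target of BMP signals, rose by 2.56. Bmp2, the ligand needed to start fracture repair, was not called (1.06 ± 0.89, adjusted p = 0.364). Of 18 TGF-beta genes 10 rose and 2 fell (0 without OUS or SU, 1 without any 1 of SS, OS, ES, OIS and SIS), the ligands Tgfb2 and Tgfb3 by 3.69 and 3.29 and Ltbp1, which anchors latent TGF-beta in matrix, by 3.21. The receptor Tgfbr1 fell by 1.13. The call of Bmp6 was lost without SU (1.30, adjusted p = 0.133). The call of Tgfbr1 was lost without either OUS or SU (-0.99 to -0.97, adjusted p = 0.0568 to 0.0685).

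Hedgehog and PTHrP genes rose in 6 of 13 cases (4 without SU) and fell in 0, the ligand Ihh by 2.95, the receptors Ptch1 and Smo by 2.12 and 2.25, and the transcription factor Gli3 by 2.79. Ihh was 12.62 on OIS and 12.60 on SIS against 9.43 to 9.89 on the 2-letter arrays. Gli1, a readout of hedgehog signals, was not called (0.67 ± 0.28, adjusted p = 0.0854). In the list of Notch, PDGF and VEGF genes 4 of 20 were higher (2 without SUS) and 3 lower, shares near those of all genes. Pdgfc and Vegfa, growth factors of mesenchyme and of vessels, rose by 2.61 and 1.52, and Notch1, a receptor also active in blood lineages, fell by 1.78. Gli1 was called without OIS (0.78, adjusted p = 0.0379). The call of Vegfa was lost without either SU or SUS (1.23 to 1.63, adjusted p = 0.0536 to 0.0997). Without SU, Ptch1 differed by 1.29.

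Transcription factors of the skeletal lineage and the Hox family rose in 14 of 23 cases and fell in 0. With the title form as a term 10 rose, and with 1 SSC array left out 10 (without SUS) to 17 (without OIS). Prrx1, a homeobox factor of limb mesenchyme and of fracture progenitors, had a log2 signal of 11.12 to 12.82 (median 12.54) on the callus arrays, against 9.55, 8.93 and 6.65 on OUS, SUS and SU. Its relative Prrx2 rose by 3.78, Shox2, a factor of the proximal limb, by 3.70, Twist1, of mesenchymal cells, by 3.18, and Mkx, of tendon, by 3.0. The Hox genes Hoxc10 and Hoxa10, of the hindlimb, rose by 2.97 and 2.28.

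Cell cycle genes moved the other way. Of 43 tested, 34 were called lower and 0 higher, with a median of -1.34 (34 lower without OIS, 29 without SU and 26 without SUS, with 1 higher without OUS). Mki67, the Ki-67 antigen of dividing cells, had a log2 signal between 10.19 and 12.92 in callus (median 10.93), against 13.68 on OUS, 14.01 on SUS and 14.03 on SU. Kif11, a motor of the spindle, was at 9.90 to 11.83 (median 10.47) on the callus arrays, against 12.84, 13 and 13.74 on OUS, SUS and SU, and E2f8, a repressor of E2F targets, lay between 8.06 and 11.27 in callus (median 9.22), against 12.37 on OUS, 12.24 on SUS and 12.62 on SU. On all 3 genes the groups did not overlap, and OIS was the highest callus array. Nusap1, a spindle protein, fell by 3.03, Ccna2, a cyclin of S phase and mitosis, by 1.78, Rrm2, which makes nucleotides for DNA, by 2.12, and Ccnb2, a cyclin of mitosis, by 1.31. Aurkb, a kinase of chromosome segregation, fell by 2.56, Cenpf, of the kinetochore, by 2.52, Top2a, the topoisomerase of dividing cells, by 2.02, and Ube2c, which helps to degrade cyclins, by 1.73. Cdk1, the kinase of mitosis, was not called (-0.83 ± 0.33, adjusted p = 0.0636), and Ccnd1, the cyclin through which growth factors act, stood at 0.77 and was not called. The list's summed linear signal lay between 64135 and 121677 on callus arrays, highest on OIS, against 228560 to 274306 on uninjured arrays. The mean log2 level of the neutrophil list was lowest on OS (9.70) and highest on OIS (13.18) among callus arrays, against 13.08 to 14.01 on uninjured arrays, and the part of blood cells in the fall of cell cycle genes was not tested. The call of Ccnb2 was lost without either SU or SUS (-1.39 to -0.98, adjusted p = 0.0509 to 0.0989). Cdk1 was called without either OUS or SI (-1.24 to -0.93, adjusted p = 0.00942 to 0.0413). Ccnd1 was called without OUS (1.05, adjusted p = 0.0384).

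Cell cycle genes share promoter words, and 3 promoters are shown for that reason. The words searched were the CHR (TTTGAA or TTCGAA) and the CCAAT box (CCAAT), on both strands and in capitals below, where a word on the other strand reads TTCAAA or ATTGG. These words do not overlap each other. The windows lie in GRCm38.p6 (RefSeq) at chr19:37376132-37376431 on the + strand (Kif11), chr9:70421505-70421804 on the - strand (Ccnb2) and chr7:48881547-48881846 on the - strand (E2f8), each 250 bases before to 50 after the start.
Kif11: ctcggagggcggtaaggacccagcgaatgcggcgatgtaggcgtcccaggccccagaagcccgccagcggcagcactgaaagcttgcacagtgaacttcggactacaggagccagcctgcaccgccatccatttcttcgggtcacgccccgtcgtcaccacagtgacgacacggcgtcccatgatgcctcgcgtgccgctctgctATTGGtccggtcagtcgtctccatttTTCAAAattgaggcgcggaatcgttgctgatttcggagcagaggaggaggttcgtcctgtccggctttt
Ccnb2: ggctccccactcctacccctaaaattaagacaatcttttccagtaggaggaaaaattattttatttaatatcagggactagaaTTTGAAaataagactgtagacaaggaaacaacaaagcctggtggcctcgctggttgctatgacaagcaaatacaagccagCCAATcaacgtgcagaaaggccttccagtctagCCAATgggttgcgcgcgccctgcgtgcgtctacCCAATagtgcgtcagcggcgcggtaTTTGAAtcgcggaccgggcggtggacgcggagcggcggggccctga
E2f8: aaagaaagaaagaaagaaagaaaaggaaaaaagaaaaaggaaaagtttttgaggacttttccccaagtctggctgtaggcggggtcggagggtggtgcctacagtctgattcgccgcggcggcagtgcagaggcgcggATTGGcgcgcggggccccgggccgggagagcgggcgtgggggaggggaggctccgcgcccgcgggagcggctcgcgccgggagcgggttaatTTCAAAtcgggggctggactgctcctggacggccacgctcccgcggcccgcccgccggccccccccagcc
Of the 34 cell cycle genes called lower, 28 had a promoter in the table, with 31 windows. The CHR occurred in 15 of these windows (48.4%) against 19.2% of all 32851, the CCAAT box in 23 (74.2%) against 37.4%, and both in 14 (45.2%) against 7.52%. These shares describe a list chosen for its part in the cell cycle. They were not set against cell cycle genes that were not called, so they do not bear on the fall in callus. No binding was measured. In Kif11 the CHR starts at -19 and the CCAAT box at -45 from the start site, in E2f8 at -20 and -112. Ccnb2 holds 3 CCAAT boxes, at -87, -54 and -21, and its CHR words start at -167 and 4.

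Inhibitors of the cycle did not move as 1 group. Of 17 genes, 3 rose (17.6%) and 6 fell (35.3%), against 22.3% and 17.8% of all genes. Cdkn1c, the inhibitor p57, which marks resting and maturing skeletal cells, had a log2 signal of 11.65 to 12.84 (median 12.16) on the callus arrays, against 8.58, 7.81 and 7.65 on OUS, SUS and SU, a difference of 4.26 ± 0.32 (adjusted p = 2.58e-05). Cdkn2b (p15) and Cdkn1a (p21) rose by 3.23 and 1.90, while Cdkn1b (p27) and Rb1, the retinoblastoma protein, fell by 1.51 and 2.28.

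Genes of the secretory pathway rose in 23 of 30 cases and fell in 0, with a median of 1.13. Lman1, a cargo receptor that leaves the endoplasmic reticulum, had a log2 signal between 13.27 and 13.84 in callus (median 13.68), against 11.16 on OUS, 11.02 on SUS and 10.09 on SU, and Ssr2, a subunit of the translocon, was at 13.01 to 13.78 (median 13.57) on the callus arrays, against 10.45, 11.33 and 10.58 on OUS, SUS and SU. Creb3l1 and Creb3l2, factors that raise secretory capacity in osteoblasts and chondrocytes, rose by 2.61 and 2.50. Of 20 hypoxia and glycolysis genes 12 rose and 0 fell, such as Car9, a carbonic anhydrase, by 3.11, Bnip3, a mitochondrial protein, by 2.15, and Slc2a1, a glucose transporter, by 1.95. Ldha, lactate dehydrogenase, differed by 1.01 ± 0.15 (adjusted p = 0.000723), and Hif1a, the hypoxia factor, by 0.92 ± 0.20 (adjusted p = 0.00431). Of 19 genes of cholesterol and fatty acid synthesis 11 rose and 0 fell, such as the desaturases Fads2 and Fads1 (3.04 and 2.56). Of 22 immediate early and heat shock genes 2 were called higher (9.09%, against 22.3% of all genes). They were Hspb1, a small heat shock protein, at 2.41 and Nr4a2, a nuclear receptor, at 1.72. None of that list fell, but 2 did without OIS and 1 without any 1 of SI, SIS and SU. With the title form as a term 6 of the 22 were called higher, where 21.1% of all genes were. Without SU, Hspb1 differed by 1.45.

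Interferon and antigen presentation genes fell in 20 of 28 cases and rose in 0, with a median of -1.32 (21 lower without OIS, 20 without SU, 13 without OUS and 12 without SUS). Ifitm1, an interferon-induced membrane protein, had a log2 signal between 8.15 and 11.32 in callus (median 8.65), against 12.54 on OUS, 12.71 on SUS and 12.41 on SU. H2-D1, a class I molecule with several near-identical relatives, fell by 1.58, and Psmb9, a subunit of the immunoproteasome, by 2.60. B2m, the light chain of class I, fell by 1.32, and Rsad2, the antiviral protein viperin, by 3.19. The class II genes H2-Aa and H2-Eb1, of antigen-presenting cells, fell by 2.01 and 1.62. The list's summed signal was 39814 to 83848 on callus arrays, highest on OIS, against 131211 to 149313 on uninjured arrays. The call of Rsad2 was lost without any 1 of ES, OS, OUS, SS and SUS (-3.0 to -2.65, adjusted p = 0.0503 to 0.119). The call of H2-Aa was lost without any 1 of OS, OUS, SI, SIS, SS and SUS (-2.05 to -1.64, adjusted p = 0.0531 to 0.155). The call of H2-Eb1 was lost without any 1 of OS, OUS, SIS and SUS (-1.55 to -1.28, adjusted p = 0.0519 to 0.129).

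Cytokine genes split. Of 24, 9 rose (37.5%) and 4 fell (16.7%), against 22.3% and 17.8% of all genes. Il11, a cytokine of the IL-6 family, rose by 2.37, and Osmr and Il6st, the receptor chains of that family, by 2.47 and 2.99. Il6 was called at 2.53, with SI as well as all uninjured arrays at the floor, so this value is no bound. The cytokines that fell were Il1b at -3.31, Osm at -3.88, Cxcl2 at -2.69 and Tnf at -1.02. Myeloid cells make them, though not alone, and their source in these samples was not tested. Of 14 steroid, vitamin D and retinoid receptors 5 rose, Rarg, a retinoic acid receptor, by 2.85, Gper1, a membrane receptor for estrogen, by 2.06, and Vdr, the vitamin D receptor, by 1.51. The estrogen receptors Esr1 and Esr2 were not called (-0.61 ± 0.28, adjusted p = 0.109 and -0.38 ± 0.23, adjusted p = 0.225). The call of Il6 was lost without any 1 of OUS, SU and SUS (2.53 to 2.56, adjusted p = 0.061 to 0.0707). The call of Tnf was lost without either SU or SUS (-0.96 to -0.84, adjusted p = 0.0511 to 0.0686). Without SU, Osmr differed by 1.38.

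Stromal niche factors were mixed, with 8 of 21 higher (38.1%) and 1 lower (4.76%), against 22.3% and 17.8% of all genes. The receptors Pdgfra and Pdgfrb rose by 2.90 and 3.21, and Foxc1, a factor of marrow niche cells, by 2.98. Angptl4, a secreted inhibitor of lipoprotein lipase, rose by 3.91. Cxcl12, Kitl, Lepr and Vcam1, which mark the perivascular stroma of resting marrow, were not called (1.06, 0.89, -0.88 and -0.18). Of 17 contractile genes 10 rose, such as Actg2, a smooth muscle actin, by 3.84 and Tpm2, a tropomyosin, by 3.67, while Myh9, a myosin that leukocytes also hold in quantity, fell by 1.76. Of 15 adipocyte genes 2 rose (13.3%) and 4 fell (26.7%), against 22.3% and 17.8% of all genes. Pparg, the master factor of fat cells, was not called (0.23). Without SU, Foxc1 differed by 1.96.

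**Figure D4:**
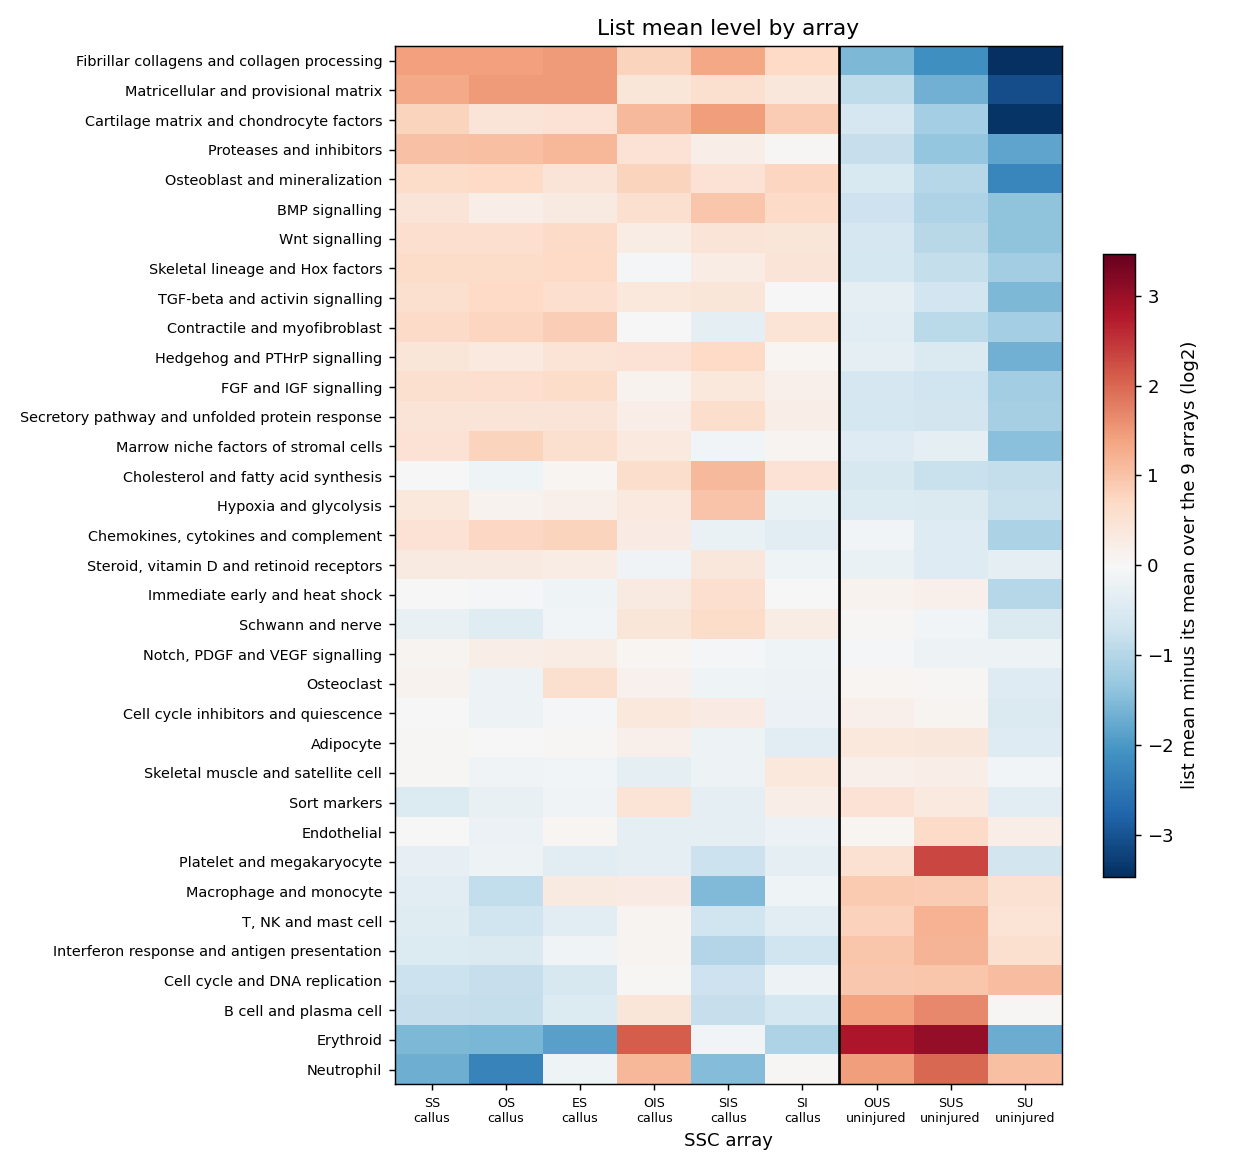
Mean log2 level of each gene list on the 9 SSC arrays, shown as the difference from the list's mean over the arrays, callus arrays left of the black line and uninjured arrays right of it. Red is higher and blue lower. The collagen list mean is 12.47 to 13.25 on callus arrays and 8.31 to 10.23 on uninjured arrays, and the erythroid list is high on OIS (11.28), OUS (11.99) and SUS (12.22) only.

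The callus arrays differed among themselves along the title forms. Besides Tnmd and Col14a1, Mfap4, a microfibril protein, was 12.55, 12.80 and 12.98 on the 2-letter arrays against 8.80, 9.83 and 9.99 on the others, and Sfrp2 was 12.53 to 12.66 against 8.96 to 10.26. Phex, a regulator of phosphate in bone cells, ran the other way, at 8.47 to 9.21 on the 2-letter arrays against 10.40 to 11.36 on the others, and Ihh and Col10a1 were highest on OIS and SIS. Each of these 7 genes was higher on every callus array than on every uninjured array. The 2-letter arrays hold no uninjured sample, so for them the code form and the response cannot be told apart. Different probe sets of 1 gene disagreed in sign for Itgav (3 of 4 alike), Ebf1 (4 of 5), Nr4a2 (5 of 6), Top2a (2 of 3), Ltbp1 and Rspo2 (1 of 2 each), and among uncalled genes for Cxcl12, Vcam1, Lepr and Esr1.

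**Figure D5:**
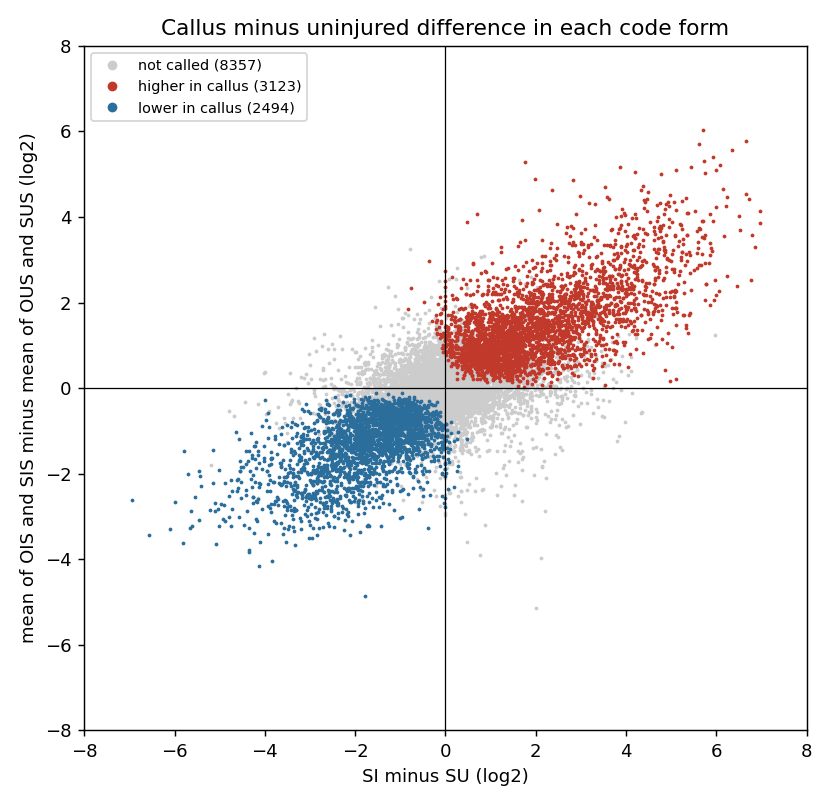
Callus minus uninjured difference of each tested gene between SI and SU (horizontal axis, log2) and between the 3-letter codes OIS and SIS against OUS and SUS (vertical axis, log2). Genes called higher are red, lower blue and uncalled grey. Of 5617 called genes 5547 lie in the quadrant of their call.

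The same contrast was also taken in bone, cartilage and stromal progenitors (BCSP), the CD105+ progeny of SSC, on 8 arrays of the series (6 callus, 2 uninjured). In a fit over all 17 arrays 14504 genes were tested, SSC callus against uninjured SSC gave 2891 higher and 2360 lower, and BCSP callus against uninjured BCSP 1621 higher and 1344 lower. Of the genes called, 2706 were called the same way in both, which is 51.5% of the SSC list and 91.3% of the BCSP list, and 1 in opposite ways. The test of the difference itself, SSC response minus BCSP response, called 0 genes (0%) in limma, with 244 at an unadjusted p under 0.05. It called 5 genes without OUS and 1 gene without ES, without SUS or without the second uninjured BCSP array. The fit treated SSC and BCSP arrays of matching title codes as independent, and only 2 uninjured BCSP arrays entered it. The lack of calls therefore does not show that the responses are alike. The smallest p belonged to Igk-V21, an antibody light chain segment, whose response was -0.85 in SSC and -5.07 in BCSP, a difference of 4.22 (SE 0.63, adjusted p = 0.0609). Its mean level was 7.06 on the uninjured SSC arrays and 11.02 on the uninjured BCSP arrays. All BCSP callus arrays were at the floor of this fit (5.95) for Igk-V21, so its fall in BCSP is at least 5.07. Next came Lipm, a lipase, with all SSC callus and all BCSP callus arrays at the floor. Its mean on the uninjured BCSP arrays, 6.02, was close to the floor too, so no larger fall could show there. Lipm responded by -1.66 in SSC and -0.07 in BCSP (difference -1.60, SE 0.29, adjusted p = 0.227). Spin4, a spindlin, responded by 2.92 in SSC and -0.03 in BCSP (difference 2.94, SE 0.54, adjusted p = 0.227). Eng, the marker that parts the populations, responded by -0.46 in SSC and by 0.80 in BCSP, a difference of -1.25 (SE 0.36, adjusted p = 1). Nebl, a nebulin relative of the cytoskeleton, responded by 4.11 in SSC and 0.70 in BCSP (difference 3.40, SE 0.97, adjusted p = 1). The other 4 genes of smallest p had an adjusted p of 1 as well. They were Brsk2, a kinase, with responses of 0.68 in SSC and -0.79 in BCSP, Igkv14-111, another light chain segment, with -0.60 and -4.51, Spcs3, a signal peptidase subunit, with 0.46 and -0.59, and Odr4, with 1.47 and 0.14.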

How the data were processed

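RNA of sorted cells had been hybridised to Affymetrix whole-genome mouse arrays. The authors deposited 1 log2 signal for each probe set on each array. The submitters' processing notes name MAS5 and the methods name dChip and Gene Expression Commons, and which of these made the deposited values is not settled, nor is the way RNA was amplified, which labels and methods describe differently. Of 45101 probe sets, 34945 had 1 gene symbol, 932 several and 9160 none in the platform annotation, and 64 were controls. The brightest probe set stood for each of 18193 genes. Values of the 9 SSC arrays were quantile normalized, raised to a log2 of 5.92 (their 20th percentile) where lower, and kept where 2 or more arrays reached the 40th percentile (log2 7.17), which left 13974 genes. A gene at the floor has only a bound.

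Callus and uninjured arrays were compared with limma 3.58.1 in R 4.3.3 (lmFit, eBayes with trend), with Benjamini-Hochberg adjustment over all genes tested and a threshold of 0.05. The difference between SSC and BCSP was fitted over 17 arrays. The fits were tested on simulated data. Alternatives covered the title form, normalization, floor, filter, probe set, moderation, array weights, the methods' t-test (2745 genes higher and 2272 lower after adjustment) and leaving out each array, with the probe set of each gene kept as reported except where the probe set was the choice varied. Counts and medians of lists without each SSC array were added after seeing the data. The number of arrays limits the precision, and no depth applies.

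The members and the 35 gene lists (741 genes, 647 tested) were chosen with earlier results of these data known. Named genes are the 20 of largest change in each direction with 1 sign in both code forms, sort and cell type markers, the 8 of smallest p for the difference between SSC and BCSP, and, in each list, some of its 8 members of smallest p. Those were picked after their values were seen, as were the named genes outside this rule: Acan, Adam8, Aspn, Axin2, Bmp2, Bmp6, Camp, Ccnb2, Ccnd1, Cd44, Cdk1, Cenpf, Col10a1, Col11a2, Col14a1, Col1a2, Col2a1, Col3a1, Col9a2, Comp, Creb3l1, Cxcl12, Dcn, E2f8, Esr2, Fgf7, Fn1, H2-Aa, H2-Eb1, Ibsp, Igf1r, Igfbp3, Il6, Kitl, Lef1, Lepr, Lox, Loxl1, Ltf, Mfap4, Mki67, Mmp9, Osmr, P4ha3, Pparg, Rrm2, Rsad2, Rspo2, Serpinh1, Sfrp1, Sox9, Tgfbr1, Tnf, Top2a and Vcam1. Promoters are RefSeq windows of GRCm38.p6.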

Additional observations from a re-analysis of the deposited data

Results flagged for a closer look

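Among the 6 SSC callus arrays, 28 of 233 named genes and 2 of 35 list means had 1 array far from the other 5 by Dixon's criterion. Chance flags about 1 in 20 groups, and genes on the same arrays are not independent. Of the 30 cases 16 were on OIS.

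Of the named genes lower in callus, and of markers of B cells and red cells, several were high on OIS, with log2 signals of 9.49 for Ipcef1 (next callus array 6.50), 10.73 for 4833407H14Rik (8.0), 11.05 for Arhgap15 (7.91), 9.44 for Cmah (6.91), 9.13 for Mirt1 (6.11), 8.85 for Tmem45a2 (6.15), 9.16 for Ms4a1 (6.54), 8.0 for Cd79a (7.54), 8.07 for Igkv14-111 (6.63) and 11.37 for Rhag (7.80). The B cell and plasma cell list mean was 9.17 on OIS (8.26). Cell cycle genes were high there too, at 10.55 for Aurkb (9.52), 12.33 for Nusap1 (10.79) and 12.91 for Rrm2 (11.36), while the secretory genes Creb3l1 at 9.5 (10.50) and Ssr2 at 13.01 (13.55) were low.

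SIS was high in Creb3l2 at 13.60 (12.72), Crtap at 13.56 (12.93), Fads2 at 12.56 (11.40), Foxc1 at 12.35 (11.75), Gper1 at 10.77 (9.46) and P3h1 at 13.12 (12.14), and low in B2m at 12.27 (13.38), Pf4 at 7.24 (9.40) and the platelet list mean at 7.14 (7.52). SI was high in Axin2 at 8.81 (7.38) and Spcs3 at 12.44 (12.10), and low in Hif1a at 13.57 (13.82) and Tgfb3 at 9.45 (11.10). ES alone was above the floor in Igk-V21, at 7.48 (5.92).

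For 2 genes every SSC callus array lay above every uninjured SSC array, while every BCSP callus array lay below every uninjured BCSP array. Brsk2 responded by 0.68 in SSC and -0.79 in BCSP, and Spcs3 by 0.46 in SSC and -0.59 in BCSP. Neither difference passed in the fit over 17 arrays (limma adjusted p = 1).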

How the results depend on the processing

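Leaving out 1 array gave 2506 to 3349 genes higher and 2042 to 2587 lower in SSC callus, and the other alternatives 2745 to 4015 higher and 2137 to 3004 lower, except for the 3-letter codes alone, with 1348 and 308 and fewer arrays. For the difference between SSC and BCSP, 0 to 5 genes were called with 1 array left out, 6 without the filter, and with the SSC and BCSP arrays of matching title codes paired, 1 as a random block and 0 as a fixed block, which leaves out the arrays with no partner. Of 5592 comparisons of a named gene with an alternative, 5284 kept direction and side of the threshold, 220 lost the call, 64 gained it and 24 turned sign. None of the genes that turned sign was called in the comparison as reported. With the title form as a term, Acp5 was -0.36, Cxcl12 -0.04 and Pparg -0.09, and the medians of the Notch, PDGF and VEGF list -0.22 and of the osteoclast list -0.34. In the 3-letter codes alone, Acp5 was -0.86, Cxcl12 -0.35, Enpep -0.85, Igkv14-111 0.91, Kitl -0.03, Thy1 -0.38 and the sort marker median -0.54. With array weights, Enpep was -0.04, Myod1 0.10, Thy1 -0.05, Vcam1 0.32 and the immediate early median -0.09. Without OIS and SI, Enpep was -0.07 and the sort marker median -0.26. With the probe set of widest range, Esr1 was 0.25 and Vcam1 0.47, and with the 60th percentile filter the muscle list median was 0.31. With 1 SSC array left out at a time, the differences that turned sign ranged, in log2, from -0.32 to 2.06 for Bmp2, -0.49 to 0.10 for Cdh5, -0.38 to 0.70 for Enpep, -3.03 to 0.06 for Pf4, -0.04 to 0.41 for Thy1, -0.46 to 0.19 for Vcam1 and -0.52 to 0.91 for Acp5. The medians of the lists ranged from -0.13 to 0.60 (immediate early), -0.38 to 0.29 (sort markers) and -0.15 to 0.46 (osteoclast). SU was the array left out where Bmp2, Enpep, Thy1, Vcam1, Acp5 and the 3 medians turned, and SUS where Cdh5 and Pf4 did. Vcam1 also stood at 0.00 without SIS. The cause was not tested. For callus against uninjured SSC, no paired analysis was possible because their replicate numbers follow accession order and pair no samples. The number of arrays, 3 of them uninjured, and the floor limit what dim genes can show.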
